A study of Mus musculus with 18 samples.

Results

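The collagen genes were taken as every row of the deposited count table whose mouse symbol consists of Col, a number, the letter a and a second number, and 44 of the 27179 genes in the table met this rule. Brain RNA had been sequenced to ask how glyphosate given by mouth changes gene expression in 18 wild-type C57BL/6J mice, an inbred strain, that were 4 months old when daily gavage began and were treated for 14 days. The vehicle group held 5 mice (3 females, 2 males) that received the neutralized sodium hydroxide solution without glyphosate, and the other groups received 125 mg/kg (5 mice, 2 females and 3 males), 250 mg/kg (4 mice, 1 female and 3 males) or 500 mg/kg (4 mice, 2 females and 2 males) of pure glyphosate per day. The mice were perfused with saline a few hours after the last gavage, and each library came from half-brain tissue of 1 mouse, in which vessels, meninges and choroid plexus are minor parts. Mice are named by the tag in their label.

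Collagens are trimeric proteins of the extracellular matrix whose chains wind into a triple helix. In the brain the parenchyma holds little fibrillar collagen: collagen IV forms the sheet of the basement membrane around vessels, fibroblasts of the meninges and of larger vessels make collagens I, III and VI, and some neurons make collagens that sit in their own membrane or near synapses. Most collagens assemble from chains of several genes, so the mRNAs of partner chains are of interest side by side.

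Of the 44 genes, 37 had enough counts to be tested, which 15863 of the 27179 genes had. The 7 others, Col2a1, Col6a6, Col9a1, Col13a1, Col14a1, Col22a1 and Col28a1, had between 54 and 146 counts in all 18 libraries together and were not tested. Total counts per library ran between 3948096 and 11732885 with a median of 7789800. Levels are CPM, counts scaled to the size of the library with TMM normalization, and are given as mean ± SD between mice. Vehicle mouse G9 and 500 mg/kg mouse G4 stood apart from the rest (median correlation of 0.942 and 0.943 with the other libraries, against 0.959 to 0.975), and values without them are given where it matters. The vascular and meningeal markers were present: 14 of 14 endothelial, 12 of 12 meningeal and perivascular fibroblast, 11 of 12 pericyte and smooth muscle and 8 of 8 choroid plexus epithelial genes passed the count filter. Among the markers of brain regions, 3 of 6 midbrain dopamine neuron genes rose with dose (edgeR quasi-likelihood test, Benjamini-Hochberg adjusted p under 0.05), with a summed level of 20.8 to 107.6 CPM in vehicle, 21.7 to 58.0 CPM in 125 mg/kg, 35.9 to 67.5 CPM in 250 mg/kg and 78.6 to 341 CPM in 500 mg/kg mice. The part of dissection or cell content in the collagen values was not tested. In such bulk tissue, fewer cells of a type and less RNA per cell cannot be told apart.

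The promoter windows of 2 chain pairs that moved together between mice are shown, as 250 bases before and 50 after the annotated start on the strand of the gene (RefSeq, GRCm38.p6), because the pairs differ in their arrangement. Col4a1 (Entrez 12826, chromosome 8, 11198423 to 11312889, minus strand) and Col4a2 (Entrez 12827, chromosome 8, 11312805 to 11449287, plus strand) start head to head, and their windows share 78 bases, printed in capitals. Their annotated models overlap by 85 bases, and the strand setting used for counting is not given in the sources used here. The Col4a1 window rests on an annotated start that lies inside the gene end given above, so the 78 shared bases depend on that start.
Col4a1, chr8:11312777-11313076: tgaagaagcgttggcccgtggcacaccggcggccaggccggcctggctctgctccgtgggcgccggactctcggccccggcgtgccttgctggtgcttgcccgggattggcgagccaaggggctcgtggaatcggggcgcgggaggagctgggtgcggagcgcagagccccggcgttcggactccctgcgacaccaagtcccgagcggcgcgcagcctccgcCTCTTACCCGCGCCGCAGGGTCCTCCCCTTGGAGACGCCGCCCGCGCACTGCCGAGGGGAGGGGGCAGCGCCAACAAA
Col4a2, chr8:11312555-11312854: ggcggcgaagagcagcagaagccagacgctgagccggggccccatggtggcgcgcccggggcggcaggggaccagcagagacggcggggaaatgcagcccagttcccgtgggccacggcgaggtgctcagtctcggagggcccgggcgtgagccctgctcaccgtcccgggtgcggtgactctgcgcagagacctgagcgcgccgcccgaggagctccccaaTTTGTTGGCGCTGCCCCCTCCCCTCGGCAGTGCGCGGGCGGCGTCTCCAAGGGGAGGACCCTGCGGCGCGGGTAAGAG

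Col8a1 (Entrez 12837, chromosome 16, 57624256 to 57754737, minus strand) and Col8a2 (Entrez 329941, chromosome 4, 126286794 to 126314330, plus strand) lie on different chromosomes. Capitals in their windows mark the GC box GGGCGG on either strand, of which each window holds 4, with neighbouring matches overlapping in Col8a2. No other collagen window held as many among the 38 windows of 35 collagen genes, and 5.49% of 32851 mouse promoter windows did. At least 1 GC box was in 23 of the 38 collagen windows (60.5%) and in 35.7% of all windows, and a CCAAT box, CCAAT on either strand, was in 34.2% of the collagen windows and 37.4% of all. A match is a run of letters and not a measured binding site.
Col8a1, chr16:57754688-57754987: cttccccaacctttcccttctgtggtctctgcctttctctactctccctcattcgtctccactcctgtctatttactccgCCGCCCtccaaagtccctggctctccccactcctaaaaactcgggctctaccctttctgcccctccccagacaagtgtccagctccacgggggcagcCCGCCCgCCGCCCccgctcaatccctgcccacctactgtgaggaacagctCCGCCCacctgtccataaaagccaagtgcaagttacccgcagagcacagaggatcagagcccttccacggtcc
Col8a2, chr4:126286544-126286843: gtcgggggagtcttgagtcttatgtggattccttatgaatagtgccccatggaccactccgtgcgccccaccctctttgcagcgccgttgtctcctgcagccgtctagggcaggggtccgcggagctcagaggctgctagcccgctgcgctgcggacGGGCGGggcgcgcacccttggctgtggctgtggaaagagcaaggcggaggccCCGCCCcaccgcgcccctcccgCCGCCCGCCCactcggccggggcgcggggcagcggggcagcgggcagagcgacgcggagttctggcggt

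Levels can be compared between genes only per length, so the mean CPM over the 18 mice was divided by the length of the gene's exons in kb. The exons of all annotated transcripts of a gene were merged for this, and ranks and shares depend on that choice. Col25a1, a transmembrane collagen made by neurons (Entrez 77018, chromosome 3, 130180358 to 130599884), had the highest level, at 5.86 ± 3.22 CPM per kb. It was followed by Col19a1, a fibril-associated collagen known from interneurons, at 5.07 ± 1.99 CPM per kb, Col8a2, a short-chain network collagen known from the corneal endothelium, at 4.38 ± 3.22, Col6a1 at 2.92 ± 1.58 and Col4a2 at 2.82 ± 0.690 CPM per kb (SD, n = 18 each). The SDs of neighbours in this order overlap throughout these 5 genes. The textbook collagens of vessels and meninges (Col1a1, Col1a2, Col3a1, Col4a1, Col4a2, Col6a1, Col6a2, Col6a3, Col15a1 and Col18a1) made up 28.6% of the summed level per kb of all 44 genes, and Col25a1 and Col19a1 alone made up 22.6%. Since most of the summed level came from other collagens, the 44 genes are called collagen genes here and not genes of vessels and meninges.

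By structural class, fibril-associated collagens held 26.1% of the summed level per kb, transmembrane collagens 18.1%, short-chain network collagens 13.7%, fibril-forming collagens 13.2%, the collagen IV genes 11.6%, the collagen VI (beaded filament) genes 11%, the multiplexins Col15a1 and Col18a1 4.76%, and the anchoring fibril and remaining genes 1.54%. Collagen genes varied widely between mice. The coefficient of variation of CPM over the 18 mice had a median of 45.7% in the 37 collagen genes tested and of 23.2% in all 15863 genes tested, and it ran between 21.4% (Col11a2) and 114% (Col6a4). The 2 sets were not matched on count, and a low count alone raises this measure. Mean counts of the collagen genes tested ran between 9.83 (Col4a4) and 594 (Col25a1).

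**Figure D1:**
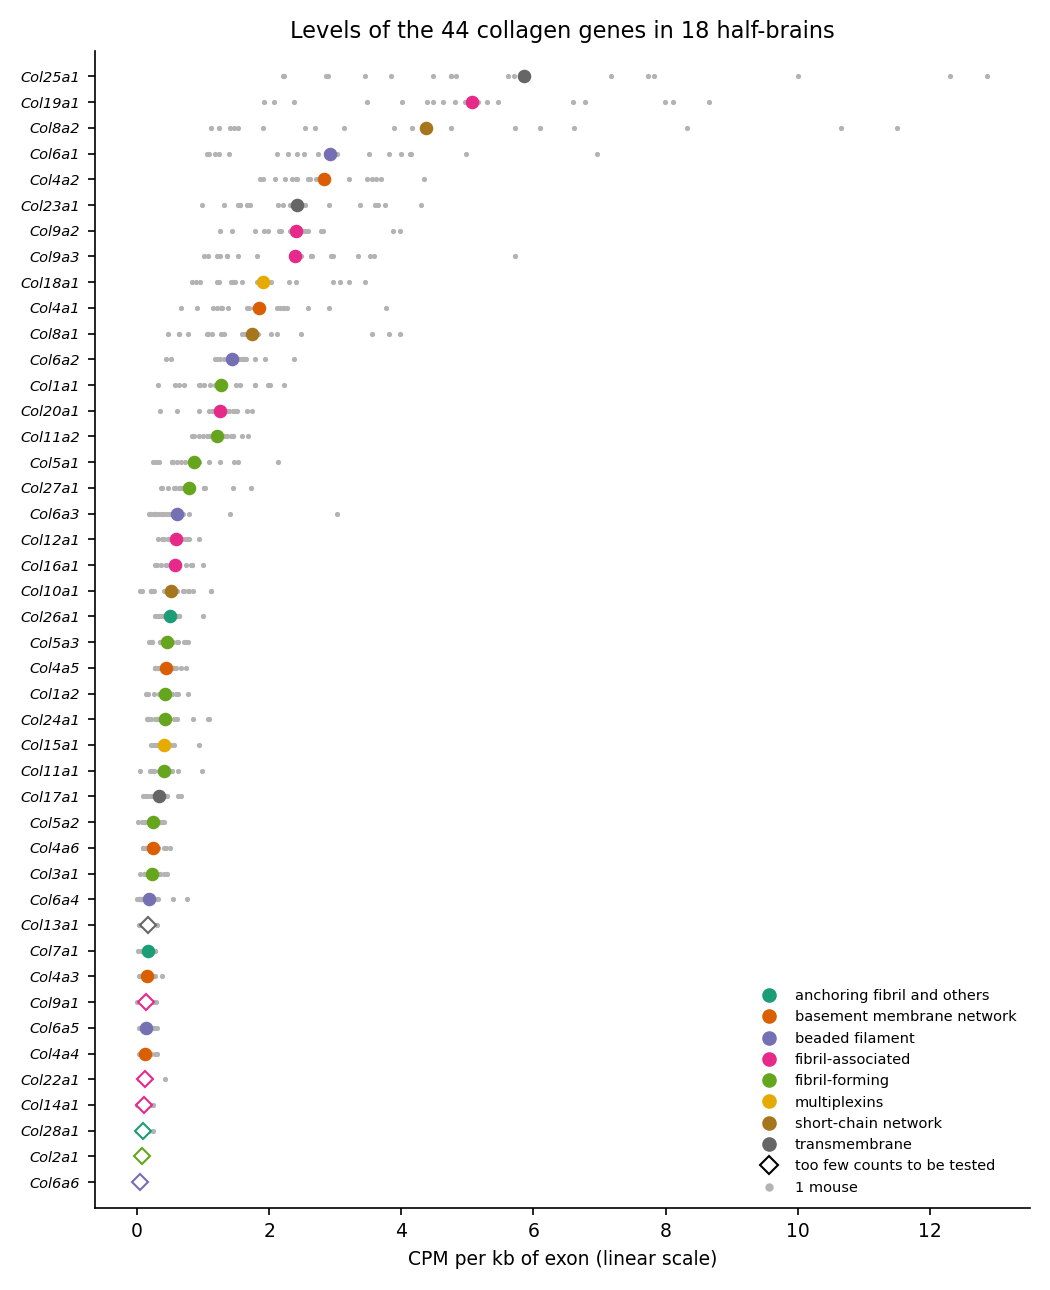
Levels of the 44 collagen genes in CPM per kb of exon on a linear axis. Large symbols are means over the 18 mice, coloured by structural class, open diamonds are the 7 genes with too few counts to be tested, and grey points are single mice; Col25a1 (5.86), Col19a1 (5.07) and Col8a2 (4.38) lead, each with a wide spread.

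The first comparison asked whether collagen mRNA changed with the dose of glyphosate, as a slope on dose with sex as a covariate. No collagen gene passed the test for a rise or fall with dose. With the edgeR quasi-likelihood test, 0 of the 37 genes passed an adjusted p of 0.05 and 2 had an unadjusted p under 0.05, where 0.29% of all genes tested passed and 13.2% had an unadjusted p under 0.05. DESeq2, run without the filter on low counts and so on all 44 collagen genes, called 0 (1 unadjusted), and limma-voom called 0 of 37 (2 unadjusted). The slope, a log2 change per 500 mg/kg, was positive in 21 of 37 collagen genes with a median of 0.01, and positive in 51.2% of all genes with a median of 0.01.

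Collagen IV is the network former of basement membranes, and its ubiquitous chains are encoded by Col4a1 and Col4a2. Col4a1 averaged 11.9 ± 3.08 CPM in vehicle mice, 11.7 ± 2.98 at 125 mg/kg, 18.5 ± 9.77 in 250 mg/kg mice and 14.1 ± 4.85 at 500 mg/kg (SD, n = 5, 5, 4 and 4). Col4a2 averaged 16.3 ± 3.22, 17.1 ± 2.17, 22.1 ± 6.94 and 20.2 ± 4.19 CPM in the same order of groups. The groups overlapped in both genes. The Col4a2 slope was 0.30 ± 0.15 (SE; edgeR adjusted p = 0.394) and that of Col4a1 was 0.27 ± 0.29 (adjusted p = 0.738).

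The remaining collagen IV chains are found in more restricted basement membranes and were scarce here, with means of 1.29 to 2.89 CPM. All 6 collagen IV genes had positive slopes, between 0.11 and 0.50, with a median of 0.28, and 0 of 6 had an unadjusted p under 0.05. The 14 endothelial markers had 8 positive slopes on dose, a median of 0.01 and 0 at an unadjusted p under 0.05. Of the 11 pericyte and smooth muscle markers, 7 had positive slopes, with a median of 0.51, 0 passed, and 2 rising and 1 falling gene had an unadjusted p under 0.05. Their summed level was 118 to 157 CPM in vehicle, 68.3 to 137 CPM in 125 mg/kg, 134 to 149.99 CPM in 250 mg/kg and 132 to 178 CPM in 500 mg/kg mice, and its part in the collagen IV values was not tested.

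Collagen VI forms beaded filaments from the chains of Col6a1, Col6a2 and a longer chain, which Col6a3 encodes. Col6a3 (Entrez 12835, chromosome 1, 90766860 to 90844001) had the largest slope of the collagen genes, 1.48 ± 0.67 (SE; edgeR adjusted p = 0.354). It had 16.8, 4.53, 5.39 and 4.84 CPM in the 500 mg/kg mice G4, G79, G87 and G90, against 3.70, 3.05, 3.21, 3.17 and 2.28 CPM in the vehicle mice G1, G5, G9, G15 and G18. All 4 of the 500 mg/kg mice were above all 5 vehicle mice, and G4 lay far above the other 3. Col6a3 was the 1 collagen gene of 37 whose 500 mg/kg and vehicle mice did not overlap, and 3.25% of all genes tested had such a gap in either direction.

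At 125 mg/kg Col6a3 had 4.26, 5.95, 8.36, 2.19 and 7.23 CPM in G25, G29, G34, G40 and G45, and at 250 mg/kg it had 2.47, 9.40, 6.39 and 36.3 CPM in G49, G64, G66 and G71. G71 had the highest value of all 18 mice, G49 lay within the vehicle range and G40 below it, and the other mice of both groups lay above every vehicle mouse. Set against vehicle, the 250 mg/kg mice had a log2 change of 2.07 ± 0.64 (SE; edgeR adjusted p = 0.9999), and the 500 mg/kg mice one of 1.37 ± 0.60 (adjusted p = 0.396). Without G4 the 500 mg/kg value was 0.52 and the slope 0.71, and without G71 the slope was 1.21. With the number that opens the tag in each mouse's title as a block, a fit chosen after seeing the data, the slope was -1.74 and the 500 mg/kg value -2.13 (edgeR adjusted p = 0.9999 and 0.999), so the direction for Col6a3 turned with that setting.

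The other collagen VI genes had slopes below 0, as 1 of 5 collagen VI slopes was positive. Col6a1 averaged 13.3 ± 9.97 CPM in vehicle mice, 12.2 ± 6.34 at 125 mg/kg, 15.4 ± 5.49 in 250 mg/kg mice and 10.4 ± 6.05 at 500 mg/kg, and Col6a2 12 ± 5.48, 10.9 ± 4.08, 14.5 ± 1.29 and 11 ± 1.81 CPM. Their slopes were -0.29 ± 0.46 and -0.04 ± 0.33 (SE). Col6a5 had a log2 change of -1.19 ± 0.53 at 500 mg/kg against vehicle (edgeR adjusted p = 0.404) with 0.257 to 0.920 CPM in 500 mg/kg mice and 0.856 to 2.55 CPM in vehicle mice, and the groups overlapped.

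**Figure D2:**
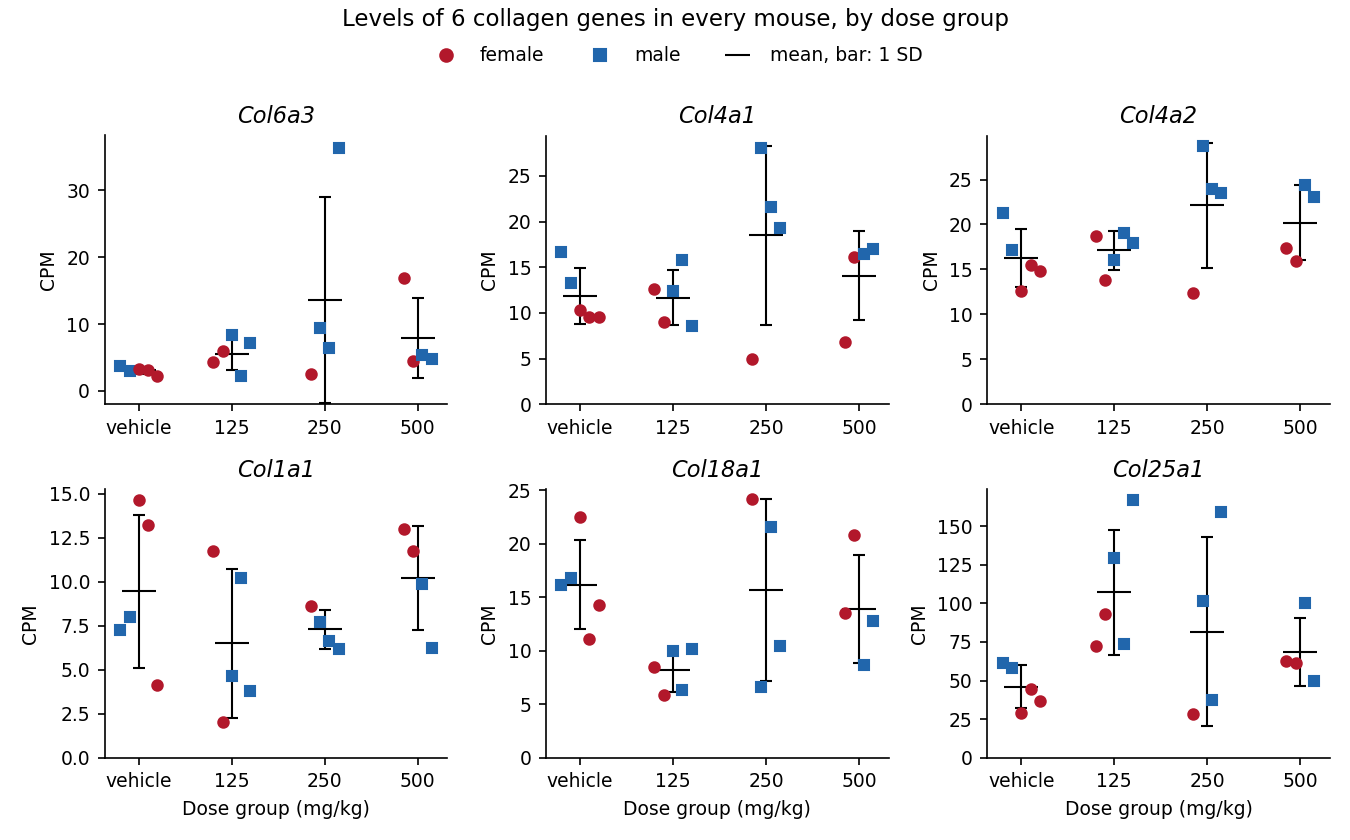
CPM of 6 collagen genes in every mouse by dose group, on linear axes with a different scale in each panel. Points are mice, circles females and squares males, and the line and bar are the group mean and 1 SD. For Col6a3 the 500 mg/kg mice (4.53 to 16.8 CPM) lie above the vehicle mice (2.28 to 3.70), with G71 at 36.3 in the 250 mg/kg group.

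Fibril-forming collagens I and III are made by fibroblasts and give tensile strength to meninges and vessel walls. Col1a1 averaged 9.45 ± 4.37 CPM in vehicle mice, 6.49 ± 4.25 at 125 mg/kg, 7.29 ± 1.10 in 250 mg/kg mice and 10.2 ± 2.94 at 500 mg/kg. Col1a2 averaged 6.01 ± 2.33, 3.68 ± 1.74, 5.64 ± 1.40 and 6.11 ± 1.46 CPM, and Col3a1 2.74 ± 1.18, 1.66 ± 1.11, 1.90 ± 0.509 and 2.40 ± 1.17 CPM. The groups overlapped in all 3 genes, and their slopes were 0.24 ± 0.38, 0.25 ± 0.33 and 0.00 ± 0.41 (SE). Of the 12 fibroblast markers 6 had positive slopes, with a median of 0.04 and 0 at an unadjusted p under 0.05.

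Of the 10 fibril-forming genes tested, 8 had positive slopes, with a median of 0.25, and 0 had an unadjusted p under 0.05. Col11a1 and Col11a2, chains of the cartilage-type collagen XI that sets fibril diameter, had slopes of 0.57 ± 0.43 and 0.31 ± 0.19 (SE), and that of Col11a1 turned to -1.24 with the title tag as a block. Col11a1 averaged 4.47 ± 1.74 CPM in vehicle mice and 3.88 ± 0.594, 6.39 ± 4.93 and 6.14 ± 1.19 CPM at 125, 250 and 500 mg/kg. Col11a2 was the steadiest collagen between mice, with 7.64 ± 1.38, 8.17 ± 1.39, 7.90 ± 1.67 and 9.54 ± 2.62 CPM in the 4 groups. Col27a1, also of the fibril-forming group, had a slope of 0.34 ± 0.33 with 10.6 ± 2.62, 6.38 ± 1.74, 12.5 ± 6.62 and 11.9 ± 5.34 CPM.

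The multiplexins are collagens of the basement membrane zone, and the end of the Col18a1 product is the angiogenesis inhibitor endostatin. Col18a1 averaged 16.2 ± 4.17 CPM in vehicle mice, 8.15 ± 2.01 at 125 mg/kg, 15.7 ± 8.48 in 250 mg/kg mice and 13.9 ± 5.04 at 500 mg/kg, with a slope of 0.01 ± 0.37 (SE). Col15a1 averaged 2.63 ± 0.566, 2.47 ± 0.817, 3.13 ± 1.87 and 2.08 ± 0.695 CPM with a slope of -0.30 ± 0.36. Fibril-associated collagens sit on the surface of fibrils, and Col16a1 and Col19a1 had slopes of 0.33 ± 0.31 and -0.47 ± 0.33. All 9 excitatory neuron markers, which Col19a1 followed between mice, had negative slopes (median -1.18, 0 passed). Of 7 GABAergic neuron markers, 2 had positive slopes (median -0.30). The part of either list in the Col19a1 slope was not tested. Col16a1 averaged 3.97 ± 1.59, 3.01 ± 0.837, 4.30 ± 1.68 and 4.55 ± 0.984 CPM, and Col19a1 38 ± 16.6, 34 ± 15.2, 40.3 ± 13.5 and 26.7 ± 7.12 CPM. Col26a1, an extracellular matrix protein with short collagen stretches, was the second collagen with an unadjusted p under 0.05, with a slope of -0.49 ± 0.23 (SE; edgeR adjusted p = 0.377) and 3.88 ± 1.07, 5.01 ± 1.88, 4.35 ± 1.43 and 3.08 ± 1.19 CPM. The 500 mg/kg and vehicle mice overlapped in all 5 genes. Among the short-chain genes, Col8a2 had a slope of -0.34 ± 0.63 (SE) with 19.7 ± 19.0, 21.7 ± 12.5, 22.5 ± 17.9 and 14.1 ± 10.6 CPM in the 4 groups. By class, positive slopes were found in 1 of 2 multiplexins, 2 of 6 fibril-associated (median -0.07), 1 of 3 short-chain (median -0.03), 1 of 3 transmembrane (median -0.08), 1 of 5 collagen VI (median -0.29) and 1 of 2 remaining genes.

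**Figure D3:**
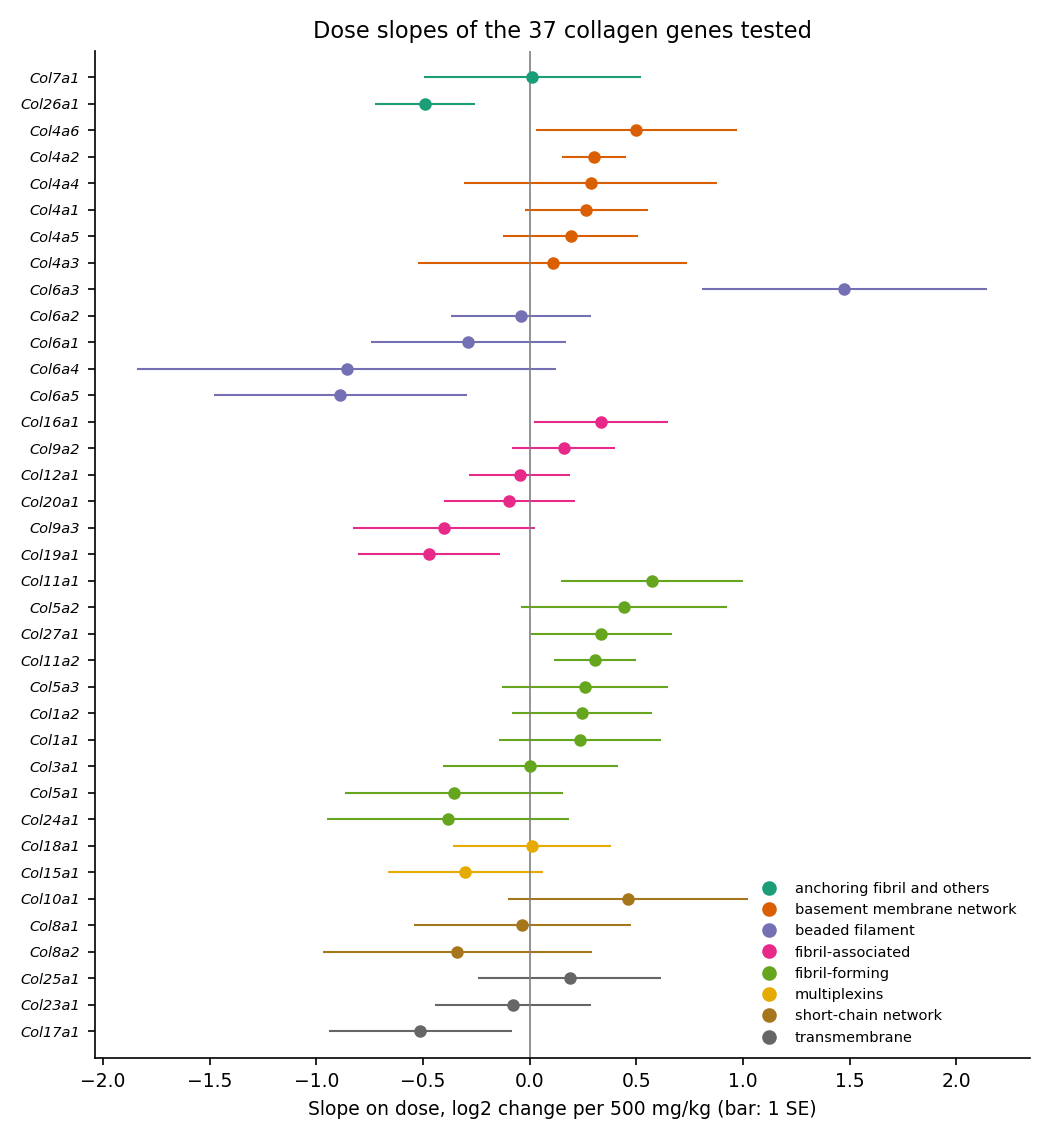
Slope on dose of the 37 collagen genes tested, as log2 change per 500 mg/kg with 1 SE, grouped and coloured by structural class. Col6a3 (1.48) lies farthest above 0, the 6 collagen IV genes lie between 0.11 and 0.50, and no gene passed the adjusted threshold.

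Single doses were also set against vehicle, with the same 5 vehicle mice in all 3 comparisons. For 125 mg/kg, edgeR called 0 of 37 collagen genes (0% of all genes), and 8 had an unadjusted p under 0.05 (11.2% of all genes). For 250 mg/kg it called 0 of 37 (0% of all genes), with 1 at an unadjusted p under 0.05 (3.76% of all genes). For 500 mg/kg it called 0 of 37 (0.0189% of all genes), with 2 at an unadjusted p under 0.05 (11.6% of all genes). DESeq2 also called 0 of the 44 genes for 125 and 250 mg/kg, and 0 of the 42 genes that it gave an adjusted p for 500 mg/kg. It had 8 (125 mg/kg), 2 (250 mg/kg) and 2 (500 mg/kg) collagen genes at an unadjusted p under 0.05. Positive log2 changes were found in 11 of 37 collagen genes with a median of -0.26 for 125 mg/kg, in 28 of 37 with a median of 0.19 for 250 mg/kg and in 17 of 37 with a median of -0.06 for 500 mg/kg. The median of all genes was 0.00 in each comparison.

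At 125 mg/kg, 7 of the 8 collagen genes with an unadjusted p under 0.05 had negative log2 changes (Col5a3, Col7a1, Col17a1, Col18a1, Col23a1, Col24a1 and Col27a1) and Col25a1 a positive one. Of the 1773 genes with an unadjusted p under 0.05 over the whole table, 1033 (58.3%) had negative changes. Col25a1 had 72.6, 92.8, 129.5, 73.8 and 167 CPM in the 125 mg/kg mice G25, G29, G34, G40 and G45, against 61.5, 58, 28.8, 44.7 and 37.1 CPM in the vehicle mice G1, G5, G9, G15 and G18. All 5 of the 125 mg/kg mice were above all 5 vehicle mice, with a log2 change of 1.09 ± 0.33 (SE; edgeR adjusted p = 0.326). Col25a1 averaged 46 ± 13.8 CPM in vehicle mice, 107 ± 40.4 at 125 mg/kg, 81.7 ± 61.1 in 250 mg/kg mice and 68.5 ± 21.9 at 500 mg/kg, and both higher doses overlapped with vehicle.

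Col18a1 had 8.52, 5.85, 9.96, 6.29 and 10.1 CPM in the 125 mg/kg mice G25, G29, G34, G40 and G45, against 16.2, 16.8, 22.5, 11.1 and 14.3 CPM in the vehicle mice G1, G5, G9, G15 and G18. Every 125 mg/kg mouse lay below every vehicle mouse, with a log2 change of -0.94 ± 0.32 (SE; edgeR adjusted p = 0.336). Col17a1, a transmembrane collagen of skin hemidesmosomes, was the other gene without overlap, at 0.755 to 1.61 CPM in 125 mg/kg mice and 2 to 3.99 CPM in vehicle mice. These 3 of 37 genes stand beside 2.78% of all genes without overlap at 125 mg/kg, and at 250 mg/kg 0 of 37 collagen genes and 1.31% of all genes were free of overlap. The summed level of the cerebellar neuron markers also differed at 125 mg/kg, with 61.9 to 806 CPM in 125 mg/kg mice and 873 to 2920 CPM in vehicle mice. Over the 18 mice Col18a1 followed the mean log2(CPM + 1) of these markers (r = 0.71, permutation p = 0.00081, adjusted p = 0.0262; rho = 0.79, p = 0.00035, adjusted p = 0.0129). Within dose groups this relation did not pass (r = 0.63, adjusted p = 0.0735). The summed microglia markers were 260 to 327 CPM in 125 mg/kg mice and 142 to 256 CPM in vehicle mice, without overlap. Col18a1 was correlated with their mean log2(CPM + 1) at r = -0.75 over the 18 mice (permutation p = 0.00023, adjusted p = 0.0116; rho = -0.73, p = 0.00089, adjusted p = 0.0235). With the dose group means removed, 0 collagen genes passed with the microglia markers. Col18a1 and both lists are named here for a difference between these groups, so r over all mice partly restates it. The part of tissue content in the 125 mg/kg values was not tested.

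The test for any difference among the 4 groups called 0 of 37 collagen genes by edgeR, where 0.0441% of all genes passed. An unadjusted p under 0.05 was found for 8 of 37 collagen genes and for 15% of all genes, and the smallest was that of the transmembrane collagen gene Col23a1 (edgeR adjusted p = 0.229), a gene named after its values were seen. DESeq2 called 0 of the 42 collagen genes that it gave an adjusted p, with 9 of 44 at an unadjusted p under 0.05.

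Other genes of the collagen pathway were read from lists. Of 28 genes of collagen hydroxylation, folding, trimming and crosslinking, 27 were tested, 0 passed for the dose slope by edgeR, and 2 rising and 1 falling gene had an unadjusted p under 0.05. These were Plod1, a lysyl hydroxylase (slope 0.72 ± 0.27, SE), the crosslinking enzyme Lox (1.13 ± 0.51) and its relative Loxl4 (-0.998 ± 0.40). The 9 collagen receptor genes tested all had positive slopes, between 0.04 and 0.49, and 0 of 9 had an unadjusted p under 0.05. Of 11 tested genes of collagen breakdown and its inhibitors, 9 had positive slopes and the gelatinase gene Mmp9 had the smallest p (slope 1.27 ± 0.42, edgeR adjusted p = 0.207). Of 17 other basement membrane genes, 11 had positive slopes, and 1 rising and 1 falling gene had an unadjusted p under 0.05. The rising one was the laminin chain gene Lamc1 (0.45 ± 0.18). The medians of these 4 lists were 0.12, 0.22, 0.25 and 0.21, beside 0.01 for all genes.

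The second factor of the design was sex, compared as 8 females against 10 males with dose in the fit. By edgeR, 0 of 37 collagen genes passed, where 0.0441% of all genes did, and 9 had an unadjusted p under 0.05, where 10.1% of all genes did. DESeq2 called 0 of 44 (10 unadjusted, smallest adjusted p = 0.0537) and limma-voom 0 of 37 (6 unadjusted). No collagen gene was free of overlap between the sexes, and 0.063% of all genes were.

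Both main collagen IV genes had lower means in females, without passing the adjusted threshold. Col4a2 had 12.3 to 18.8 CPM with a median of 15.2 CPM in females and 16.1 to 28.7 CPM with a median of 22.2 CPM in males, a log2 change of -0.48 ± 0.11 (SE; edgeR adjusted p = 0.301). The ranges overlapped only between 16.1 and 18.8 CPM. Col4a1 had 4.93 to 16.1 CPM (median 9.54) in females and 8.53 to 28.1 CPM (median 16.5) in males, a log2 change of -0.75 ± 0.21 (adjusted p = 0.459). The endothelial markers had a summed level of 64.6 to 228 CPM with a median of 158 CPM in females and of 138 to 201 CPM with a median of 171 CPM in males, and 0 of 14 had an unadjusted p under 0.05 between the sexes. The part of vessel content in the collagen IV difference was not tested.

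Col26a1 had the smallest p of the collagen genes between the sexes, with 2.22 to 3.91 CPM (median 3.02) in females and 2.55 to 8.19 CPM (median 4.96) in males, and a log2 change of -0.78 ± 0.17 (SE; edgeR adjusted p = 0.169). Col25a1 had 28.6 to 92.8 CPM (median 53.1) in females and 37.5 to 167 CPM (median 87) in males, with a log2 change of -0.80 ± 0.30 (adjusted p = 0.459). The ranges of both genes overlapped.

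The short-chain collagens Col8a1 and Col8a2 had higher means in females, again without passing. Col8a2 had 6.30 to 51.6 CPM (median 24.2) in females and 5.05 to 27.4 CPM (median 11.7) in males, with a log2 change of 0.93 ± 0.42 (SE; edgeR adjusted p = 0.484). Col8a1 averaged 18.4 ± 10.1 CPM in females and 9.81 ± 4.58 CPM in males, with a log2 change of 0.90 ± 0.34 (adjusted p = 0.459). All 8 choroid plexus epithelial markers also had positive values, with a median of 0.93 and 1 of 8 at an unadjusted p under 0.05. Their summed level was 34.2 to 1294 CPM (median 474) in females and 18.5 to 499.6 CPM (median 128) in males. The part of choroid plexus content in the Col8a1 and Col8a2 values was not tested. Col10a1, the other short-chain gene, had a lower mean in females. Its log2 change was -1.04 ± 0.43 (SE; edgeR adjusted p = 0.459), at a mean of 12.2 counts.

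The slope on dose was also compared between females and males. By edgeR, 0 of 37 collagen genes passed, as did 0% of all genes, and 1 collagen gene had an unadjusted p under 0.05, where 1.65% of all genes did. It was Col12a1, a fibril-associated collagen, whose slope on the log2 scale exceeded that of males by 1.20 ± 0.40 in females (SE; edgeR adjusted p = 0.9999). DESeq2 called 0 of 44, with 2 at an unadjusted p under 0.05.

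The spread between mice itself had structure. Partner chains, whose proteins assemble into one trimer, were correlated over the 18 mice as log2(CPM + 1), with a two-sided permutation test over 11 pairs in which both genes were tested. Col8a1 and Col8a2 rose and fell together (Pearson r = 0.89, p = 1e-05, the smallest that the resamples can give, adjusted p = 7.33e-05; Spearman rho = 0.88, p = 2e-05, adjusted p = 0.00022). Without the 2 mice farthest from the median of Col8a1, r was 0.88. Col8a2 had 51.6, 37.3 and 47.8 CPM in G9, G29 and G49 and Col8a1 29.9, 31.1 and 27.9 CPM, and in these 3 females, of different dose groups, both genes had their 3 highest values.

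Col4a1 and Col4a2 were correlated with r = 0.83 (permutation p = 2e-05, adjusted p = 7.33e-05; rho = 0.80, p = 0.00015, adjusted p = 0.00055), and Col6a1 and Col6a2, neighbours on chromosome 10, with r = 0.75 (p = 2e-05, adjusted p = 7.33e-05; rho = 0.82, p = 5e-05, adjusted p = 0.000275). Col1a1 and Col1a2 had r = 0.70 (permutation p = 0.00133, adjusted p = 0.00366; rho = 0.64, p = 0.0047, adjusted p = 0.0103), and Col4a3 and Col4a4, which also start head to head and whose annotated models overlap by 114 bases, where reads cannot be assigned without the strand setting, r = 0.65 (p = 0.00357, adjusted p = 0.00785; rho = 0.65, p = 0.00437, adjusted p = 0.0103). Without the 2 mice farthest from the median of the first gene these 4 values were 0.72, 0.73, 0.60 and 0.73. All 5 pairs passed again without G4 and G9 and after the dose group means were taken out. Sex was not taken out, and in each of the 5 pairs both genes differed in the same direction between females and males. The part of sex in these r values was not tested.

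The other 6 pairs did not pass. Col6a3 did not pass with Col6a1 (r = 0.07, rho = 0.15, permutation p = 0.784 and 0.546, adjusted p = 0.932 and 0.751) or Col6a2 (r = 0.06, rho = 0.09, p = 0.787 and 0.736, adjusted p = 0.932 and 0.9), although all 3 encode chains of 1 protein. Col4a5 and Col4a6, head to head on the X chromosome with starts 1275 bases apart, had r = -0.02 (rho = 0.02, p = 0.932 and 0.942, adjusted p = 0.932 and 0.981). The pairs Col5a1 and Col5a2, Col9a2 and Col9a3, and Col11a1 and Col11a2 had r between 0.03 and 0.24.

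**Figure D4:**
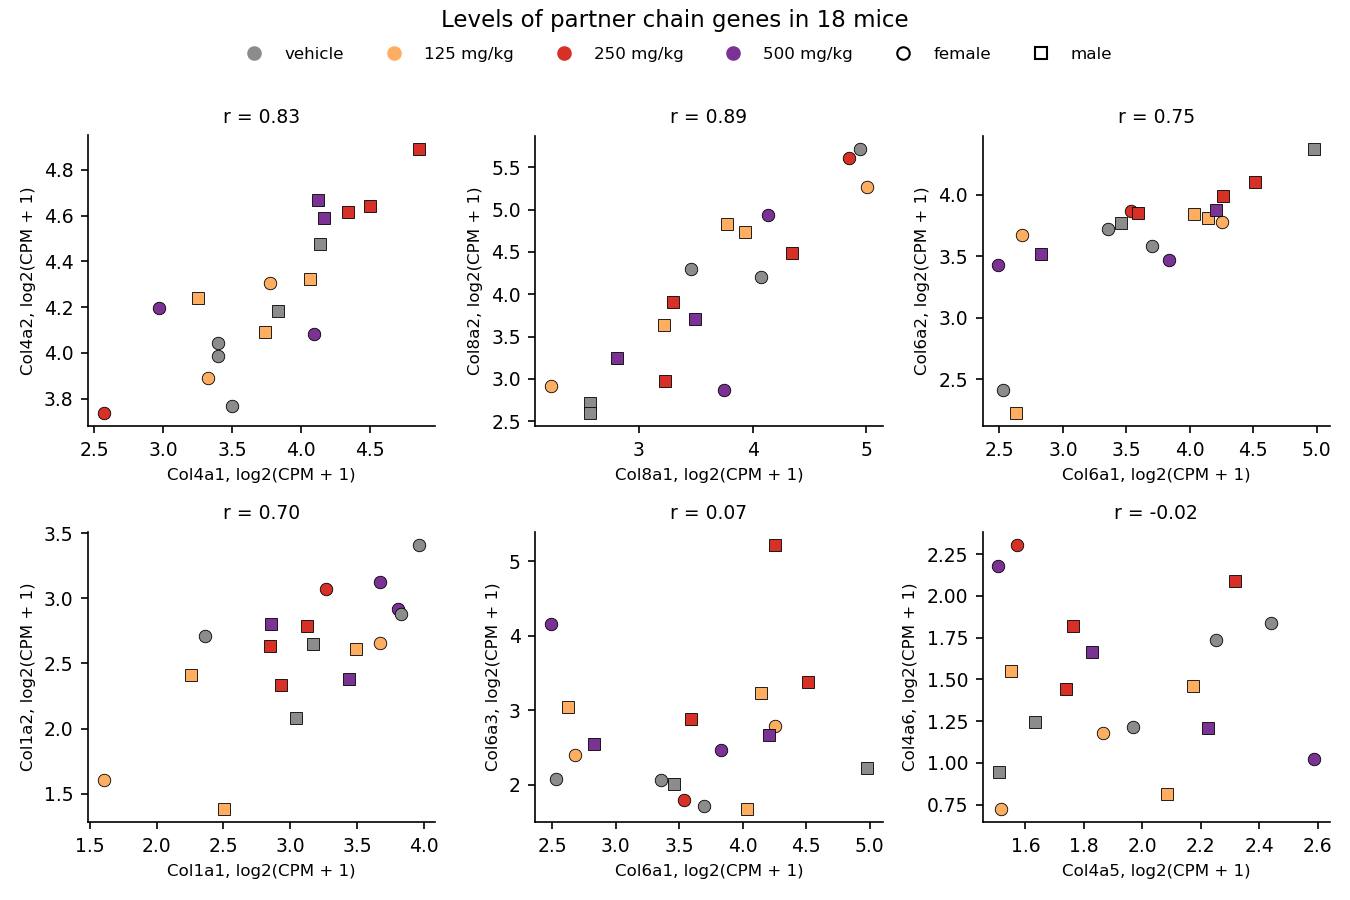
Levels of 6 pairs of partner chain genes in the 18 mice, as log2(CPM + 1). Each point is a mouse, coloured by dose group, with circles for females and squares for males; the pairs Col4a1 and Col4a2 (r = 0.83), Col8a1 and Col8a2 (0.89), Col6a1 and Col6a2 (0.75) and Col1a1 and Col1a2 (0.70) lie along a line, and Col6a1 with Col6a3 (0.07) and Col4a5 with Col4a6 (-0.02) do not.

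Collagen levels were then set against markers of 15 cell types, each taken as the mean log2(CPM + 1) of its tested markers, with all 555 pairs of collagen gene and list adjusted together, a comparison chosen after the data were seen. By Pearson r, 27 pairs passed, 20 positive and 7 negative, with 19 of the 37 collagen genes in at least 1. Of these, 10 also passed by rank, within dose groups and without G4 and G9. The share of all genes tested that would pass with these lists was not computed, so the counts cannot be set against it.

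Choroid plexus epithelium, the tissue that secretes cerebrospinal fluid, and microglia had the most passing genes of the 15 lists, 5 of 37 each, all positive for choroid plexus and 1 positive and 4 negative for microglia. With the dose group means removed, 5 genes passed for choroid plexus and 0 for microglia, and 5 passed for the excitatory neuron list and 4 for the astrocyte list. Col8a2 followed the choroid plexus markers most closely (r = 0.97, permutation p = 1e-05, adjusted p = 0.00139; rho = 0.96, p = 1e-05, adjusted p = 0.00278). Col9a3, a chain of fibril-associated collagen IX, had r = 0.92 (permutation p = 1e-05, adjusted p = 0.00139; rho = 0.88, p = 1e-05, adjusted p = 0.00278), and Col8a1 r = 0.88 (p = 1e-05, adjusted p = 0.00139; rho = 0.88, p = 2e-05, adjusted p = 0.00278). The minor collagen IV genes Col4a3 (r = 0.78, permutation p = 0.00011, adjusted p = 0.00763; rho = 0.78, p = 0.00024, adjusted p = 0.0103) and Col4a4 (r = 0.68, p = 0.00193, adjusted p = 0.0423; rho = 0.68, p = 0.00228, adjusted p = 0.0491) had lower values. The summed markers ran between 18.5 and 1294 CPM in vehicle mice and between 34.2 and 313 CPM in 500 mg/kg mice, so mice of 1 group differed widely. With the dose group means removed r was 0.97 for Col8a2, 0.94 for Col9a3 and 0.89 for Col8a1, and without the 2 mice farthest from the median, G1 and G5, it was 0.96, 0.92 and 0.84. Without G4 and G9 Col4a4 no longer passed.

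The meningeal and perivascular fibroblast markers were followed by Col1a1 (r = 0.89, permutation p = 1e-05, adjusted p = 0.00139; rho = 0.86, p = 3e-05, adjusted p = 0.00333) and Col1a2 (r = 0.74, p = 0.00052, adjusted p = 0.0206; rho = 0.70, p = 0.00158, adjusted p = 0.0365). Col3a1 passed by r and not by rank (r = 0.68, permutation p = 0.00206, adjusted p = 0.0423; rho = 0.53, p = 0.0245, adjusted p = 0.252). Without the 2 mice farthest from the median, G15 and G29, r was 0.79, 0.64 and 0.44, so the value of Col3a1 rested on those mice. G29 had the lowest Col1a1 of all mice, 2.04 CPM. Without G4 and G9, Col1a1 passed and Col1a2 (r = 0.72, adjusted p = 0.0694) and Col3a1 (r = 0.64, adjusted p = 0.175) did not. With the endothelial markers the collagen IV gene Col4a6 (r = 0.66, permutation p = 0.00058, adjusted p = 0.0215; rho = 0.84, p = 4e-05, adjusted p = 0.0037) and the collagen V gene Col5a3 (r = 0.62, p = 0.00152, adjusted p = 0.0383; rho = 0.73, p = 0.00082, adjusted p = 0.0235) passed. Col4a1 and Col4a2 did not pass with that list, and with the dose group means removed only 1 collagen gene passed. G29 lay far below the other mice in the mean log2 of these markers (2.19 against 2.94 to 3.69). No collagen gene passed with the pericyte and smooth muscle markers.

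Of the neuronal lists, the cortical and hippocampal excitatory markers were followed by Col19a1 (r = 0.81, permutation p = 7e-05, adjusted p = 0.00555; rho = 0.80, p = 7e-05, adjusted p = 0.00486). G4 and G9 had the lowest marker sums, 405 and 496 CPM against 1878 to 6046 CPM in the other mice, with 16.3 and 14.3 CPM of Col19a1, and G45 had the lowest Col19a1, 13.3 CPM. Without G4 and G9 r was 0.74. The GABAergic neuron list had 2 passing collagen genes, both positive, with a highest r of 0.84 among the 37 genes. With the dose group means removed, 2 genes passed for that list. G4, G9 and G45, given above with low Col19a1, also had the lowest mean log2 of the GABAergic markers, at 5.35, 5.22 and 5.07. The relation of Col19a1 to the excitatory list is thus not shown to be particular to that list. Col6a1 fell as the astrocyte markers rose (r = -0.81, permutation p = 3e-05, adjusted p = 0.00333; rho = -0.86, p = 2e-05, adjusted p = 0.00278) and rose with the striatal projection neuron markers (r = 0.78, p = 0.0002, adjusted p = 0.0111; rho = 0.77, p = 0.00024, adjusted p = 0.0103). Vehicle mouse G1, with 30.5 CPM the highest in Col6a1, also had the highest striatal marker sum, 3666 CPM. The 1 blood gene that could be tested was Alas2, the first enzyme of heme synthesis in red cell precursors. With it 2 collagen genes passed, both positive, with a highest r of 0.78. Col4a1 was among them (r = 0.75, permutation p = 0.00037, adjusted p = 0.0171; rho = 0.81, p = 0.00015, adjusted p = 0.00833). Alas2 and Col4a1 both had lower levels in females (log2 changes of -0.75 and -0.75), and sex was not taken out of this r. The globin genes Hba-a1, Hba-a2 and Hbb-bs were at 0 to 0.292 CPM in every mouse.

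**Figure D5:**
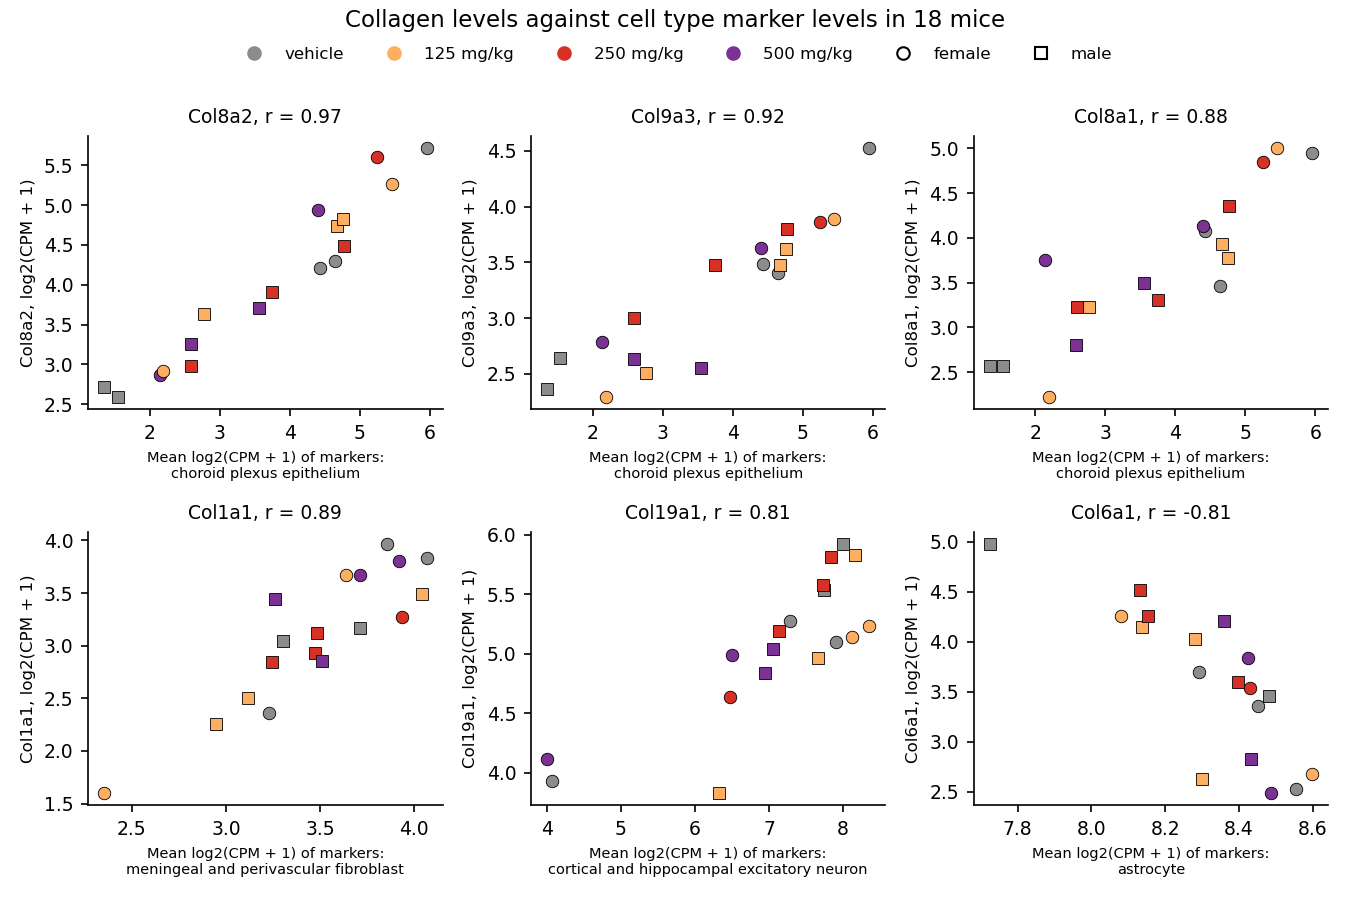
Levels of 5 collagen genes and of Col6a1, as log2(CPM + 1), against the mean log2(CPM + 1) of cell type markers in the 18 mice. Each point is a mouse, coloured by dose group, circles for females and squares for males; Col8a2 (r = 0.97), Col9a3 (0.92) and Col8a1 (0.88) rise with the choroid plexus markers, Col1a1 (0.89) with the fibroblast markers and Col19a1 (0.81) with the excitatory neuron markers, and Col6a1 falls with the astrocyte markers (-0.81).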

How the data were processed

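The authors sequenced rRNA-depleted, stranded total RNA as paired-end reads and deposited a table of whole-number gene counts for the 18 mice, keyed by Entrez identifier. The submitters' processing notes name STAR 2.7.5b, featureCounts, MultiQC 1.12 and DESeq2 1.34.0; the strand setting of the counting is not given in the sources used here. Counts were used as deposited. Genes with too few counts were removed by filterByExpr over dose groups (minimum count 10), which left 15863 genes, and the edgeR 4.0.16 quasi-likelihood test was run with TMM factors (R 4.3.3), sex as a covariate and Benjamini-Hochberg adjustment over all genes tested, with a threshold of 0.05. The common biological coefficient of variation was 25.8%. The slope is per 500 mg/kg. CPM and log2(CPM + 1) values were computed from the counts and TMM factors. Exon lengths are those of the merged exons of all transcripts of a gene in GENCODE on GRCm38. The annotation used for counting may differ from it. Correlations used 100000 resamples. Tests were run on simulated data first.

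The members and lists were chosen with earlier results of these data known. Genes given with values in each group were the 8 with the smallest p for the slope and the 4 with the smallest p for 500 mg/kg and for sex (mean of at least 20 counts), 10 textbook collagens of vessels and meninges, and the 5 highest per length. Up to 3 genes of each pathway list were given with their slopes only. The values of 1 listed gene are not reported here. Col4a3, Col4a4, Col4a6, Col5a3, Col6a4, Col6a5, Col7a1, Col8a1, Col9a3, Col10a1, Col12a1, Col17a1, Col23a1 and Col24a1 were named after their values were seen. Alternatives were DESeq2 1.42.0, limma 3.58.1 (voom), other size factors and filters, left-out mice and the number that opens the tag in the title as a block. Apart from mouse G4, the G numbers that name the mice run in dose order. A processing order that follows the G numbers and dose cannot be told apart. The number used as a block does not run in dose order.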

Additional observations from a re-analysis of the deposited data

Results flagged for a closer look

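In 15 of 148 gene and dose group combinations (10.1%), 1 mouse lay far from the others of its group by Dixon's criterion. These values came from 10 mice, and 11 were high and 4 low. The criterion flags about 1 in 20 groups if values are normally distributed, which CPM need not be. The share flagged over all genes tested was not computed, so 10.1% cannot be read as an excess in collagen genes. In vehicle mice, Col6a1 was 30.5 CPM in G1 (others 4.77 to 12 CPM), and G9 had 2.88 CPM of Col4a4 (others 0.316 to 0.793 CPM) and 12 CPM of Col9a2 (others 6.63 to 7.86 CPM). At 125 mg/kg, G45 had low values of Col6a2 (3.67 CPM, others 11.7 to 13.3 CPM) and Col17a1 (0.755 CPM, others 1.46 to 1.61 CPM), while Col5a3 was 3.70 CPM in G34 (others 1.27 to 1.58 CPM) and Col6a4 2.23 CPM in G29 (others 0.146 to 0.482 CPM). At 250 mg/kg, G49 had 22.4 CPM of Col27a1 (others 8.44 to 9.84 CPM) and 2.22 CPM of Col26a1 (others 4.82 to 5.20 CPM), and G71 had 5.91 CPM of Col15a1 (others 1.97 to 2.53 CPM). At 500 mg/kg, G4 had 16.8 CPM of Col6a3 (others 4.53 to 5.39 CPM) and 6.81 CPM of Col4a1 (others 16.1 to 16.9 CPM), G87 had 4.60 CPM of Col24a1 (others 2.06 to 2.42 CPM) and 4.86 CPM of Col26a1 (others 2.35 to 2.57 CPM), and Col9a3 was 11.4 CPM in G79 (others 4.86 to 5.91 CPM). No flagged value was tested further.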

How the results depend on the processing

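No setting called a collagen gene in any comparison, and the calls over all genes moved with the settings. For the dose slope (46 genes), 29 were called with no filter on low counts, 27 with dose as rank, 2 without G4 and G9, 7 without the vehicle mice, 226 by DESeq2, and 0 without the 500 mg/kg mice, in males alone and in females alone; leaving out 1 mouse gave 2 to 127. For 500 mg/kg against vehicle (3 genes), 9 were called with no filter, 8 with at least 10 counts in every library, 1 without G4 and G9, 1 with only the 2 groups compared and 172 by DESeq2; leaving out 1 mouse gave 0 to 19. DESeq2 called 40 genes for 125 mg/kg against vehicle (0 by edgeR; 0 to 1 with 1 mouse left out), 530 for any difference (7 by edgeR; 2 without G4) and 23 for sex (7 by edgeR; 2 with at least 10 counts in every library; 7 to 11 with 1 mouse left out). The cause was not tested. The Col16a1 slope turned to -0.0607 without the 500 mg/kg mice and to -0.0453 in males alone, and that of Col27a1 to -0.33 in males alone. Correlations that did not pass turned sign for Col4a5 and Col4a6 (0.0723) and Col9a2 and Col9a3 (-0.21) without G4 and G9, and for Col6a2 and Col6a3 within dose groups (-0.0741). Without G4 and G9, a setting chosen after seeing the data, 15 marker relations passed, against 27 over all mice. Each replicate number belongs to 1 mouse, but the number that opens the tag in the title is shared by some mice of different groups. With it as a replicate block, chosen after seeing the data, 0 collagen genes passed, and 0 genes of the whole table passed for the dose slope, 500 mg/kg and 125 mg/kg, and 4 for sex. The slope turned to -1.74 for Col6a3 and -1.24 for Col11a1, and the 500 mg/kg change to -2.13 for Col6a3, -0.283 for Col4a2 and -0.767 for Col25a1. The labels do not say what the number marks, mice that share it across groups differ in sex too, and the deviations of the 7 such pairs had a median r of 0.05 (-0.22 to 0.34). The other comparisons were not run with the block, and that of 250 mg/kg cannot be told apart from 1 tag. Low counts limit the scarce collagen genes, and intervals between mice are wide.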
